A study of Mus musculus with 4 samples.

Results

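The type 17 and IL-22 cytokine axis was followed here as 8 genes, chosen by symbol from the 32285 genes in the count matrices: Il17a, Il17f, Il22, Il23r, Il23a, Il12b, Ccr6 and Il22ra2. All 8 were found. They were measured in 4 single-cell RNA-seq samples of CD45+ leukocytes, drawn from the colonic lamina propria of mice with colitis. The mice carried the C57BL/6 background and were given 2% dextran sulfate sodium (DSS) over 7 days before the colon was removed on day 8, and each sample mixed 3 mice. Age was given as 10 weeks in the labels and as 8 weeks in the study's own text. The study used AhR-null (AhR-/-) mice, which lack the aryl hydrocarbon receptor, and wild type (AhR+/+) littermates. The labels do not tell which sample came from which genotype, so the samples are called 1 to 4, no genotypes were compared, and no test between samples was made.

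IL-23 is a cytokine of a p19 subunit (Il23a) and a p40 subunit (Il12b) that IL-12 also holds. It acts through a receptor with the chain Il23r on lymphocytes such as γδ T cells, Th17 cells and type 3 innate lymphoid cells (ILC). Those lymphocytes release IL-17A, IL-17F and IL-22. In the gut IL-17 draws in neutrophils, while IL-22 acts on epithelium and induces antimicrobial proteins. Il22ra2 encodes a soluble protein that binds IL-22 and blocks it, and Ccr6 encodes a chemokine receptor for Ccl20 found on type 17 lymphocytes and on B cells.

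The 3 windows printed here are the 250 bases before the RefSeq start of Il17a, Il17f and Il23r, on GRCm38.p6. They are shown because these genes had high levels in the same small group of lymphocytes, described further on (Il17f in sample 1). Another reason is that each window holds the letters AGGTCA, a core that many nuclear receptors bind. Capitals mark AGGTCA on either strand.

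Il17a, chr1:20730655-20730904, plus strand: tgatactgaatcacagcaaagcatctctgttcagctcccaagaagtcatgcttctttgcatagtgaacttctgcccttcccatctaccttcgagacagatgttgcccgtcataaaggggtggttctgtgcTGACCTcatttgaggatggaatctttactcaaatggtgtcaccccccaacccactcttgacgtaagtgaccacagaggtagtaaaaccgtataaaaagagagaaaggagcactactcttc

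Il17f, chr1:20784271-20784520, minus strand: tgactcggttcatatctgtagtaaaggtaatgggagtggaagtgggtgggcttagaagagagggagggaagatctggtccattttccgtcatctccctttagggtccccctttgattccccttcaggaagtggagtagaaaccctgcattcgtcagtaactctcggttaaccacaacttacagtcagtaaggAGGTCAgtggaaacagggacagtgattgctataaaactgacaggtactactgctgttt

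Il23r, chr6:67491856-67492105, minus strand: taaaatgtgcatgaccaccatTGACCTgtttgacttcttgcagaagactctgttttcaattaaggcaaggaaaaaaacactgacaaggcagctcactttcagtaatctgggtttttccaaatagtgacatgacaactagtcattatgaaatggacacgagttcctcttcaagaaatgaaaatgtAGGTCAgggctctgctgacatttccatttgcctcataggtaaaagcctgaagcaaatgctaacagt

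The Il17a window held 1 match and the Il17f window 1, while the Il23r window held 2. RefSeq windows were at hand for 6 of the 8 members, with more than 1 window for Ccr6. A Ccr6 window also held the letters, and those of Il22 and Il12b did not. Of 32851 such windows over all genes, AGGTCA stood in 14%. The letters GCGTG, the core bound by the aryl hydrocarbon receptor, stood on neither strand of a member's window and in 28.2% of all windows. These are matches of letters in a window and show no binding. In the GENCODE annotation of GRCm38, Il17a (chromosome 1, 20730905 to 20734496, plus strand) and Il17f (chromosome 1, 20777146 to 20790617, minus strand) lie 42649 bases apart, and the printed Il17f window falls inside the longer GENCODE model of that gene.

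After filtering, 39550 of 45229 cell barcodes were kept, 7539 to 11824 a sample, at a median of 5493 to 6988 UMIs (unique molecular identifiers, each a counted transcript) a cell. The matrices held from 72509408 to 135516016 UMIs a sample, and any pair of samples shared 0.271% to 0.423% of barcodes. Ptprc, which encodes CD45, was detected in 92.2% to 95.6% of kept cells. Clusters were named by markers, and lymphocytes were then gated cell by cell. T cells held at least 2 UMIs of the CD3 genes, γδ T cells also held Trdc, at least 2 UMIs of the γδ constant segments and no Trac, and ILC, a class that includes NK cells, held no Cd3e, no Trac and at most 1 UMI of Cd3d and Cd3g. The classes compared were T cells (4322), γδ T cells (336), ILC (1490), dendritic cells (DC, 1762), monocyte-macrophages (9217), neutrophils (5745), and B and plasma cells (6837). Another 6265 cells lay in clusters with markers of unlike lineages and were kept out of the classes.

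Class composition differed between samples in ways that touch the levels. The γδ T class held 51, 163, 37 and 85 cells in samples 1 to 4. In sample 2 its Cd8a level was 243 CPM (UMIs of the gene per 1000000 UMIs of the class) against 8.41 to 29.7 in the others, and 1 T-lineage cluster led by Ikzf2, Cd7 and Ccl5 drew 1103 of its 1510 cells from sample 2. Trbc2, a constant segment of the β chain, was detected in 82.4% of γδ T cells. Of the ILC, 340 and 188 lay in sub-clusters named NK or ILC1-like and 314 in one named ILC2-like, while 39 lay in an ILC3-like sub-cluster. Another 169 lay in a sub-cluster of low UMI counts led by myeloid genes. Others lay in T-lineage sub-clusters, among them 74 in a Treg-like one, 63 and 32 in naive T-like ones and 54 in one led by Cd40lg and Cd4. Trbc2 was detected in 35.4% of ILC. Whether some of these are T cells whose CD3 was not read was not tested. The ILC level is therefore an average over cells that are mostly not type 3 and may not all be innate. The part of these differences in the levels that follow was not tested.

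Il17a encodes IL-17A. Its level was 3682, 235, 355 and 445 CPM in γδ T cells of samples 1 to 4, and 122, 94, 53.2 and 81.6 CPM in T cells. The γδ T class was the higher in 4 of 4 samples, with ratios of 30.1 (95% interval 27.7 to 32.8), 2.5 (2.16 to 2.87), 6.68 (5.43 to 8.17) and 5.46 (4.76 to 6.24). Intervals throughout are exact and cover counting error only. In ILC the level was 1.91 to 19.2 CPM, and in B and plasma cells, neutrophils, DC and monocyte-macrophages it was 0.172 to 7.39 CPM.

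The share of γδ T cells with an Il17a UMI was 56.9%, 9.82%, 51.4% and 43.5%, from 51, 163, 37 and 85 cells. In T cells it was 4.98% to 8.33%. B and plasma cells, which should lack the gene, gave 0.395% to 0.897% and neutrophils 0.141% to 1.07%. Median depth was 5687 to 8316 UMIs in γδ T cells, 3853 to 5091 in B and plasma cells and 2915 to 5913 in neutrophils. With every cell thinned to 1000 UMIs the shares were 4.91% to 31.4% in γδ T cells, 2.24% to 2.91% in T cells and 0% to 0.239% in B and plasma cells. Monocyte-macrophages held 77 Il17a UMIs in all, with no cell at 5 or more, and positive cells there had a median of 1 UMI in every sample.

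Few cells carried most of the Il17a UMIs. The 10 highest cells held 71.1% of them in sample 1 and 39.2% to 43.9% in samples 2 to 4. In sample 1, 511 of 3389 UMIs came from 1 γδ T cell. Leaving out the highest cell of each class kept the γδ T class above the T class in 4 of 4 samples, at ratios of 2.11 to 27.1.

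Summed over the samples, T cells, the larger class, nonetheless held more Il17a UMIs than γδ T cells did. They carried 3395 UMIs (42% of the total), γδ T cells 2409 (29.8%) and mixed clusters 1890 (23.4%). In sample 1 the order was the reverse, with 1752 UMIs in γδ T cells and 781 in T cells. In each other sample T cells held the larger share, 47.9% to 60.8% against 11% to 18.5% in γδ T cells. Of 127 T cells with at least 5 Il17a UMIs, 64 had a Cd4 UMI, 30 a Foxp3 UMI and 11 a Cd8a UMI. Trdc was found in 31 of the 127 and Trac in 108. The T class as gated therefore includes cells with transcripts of the δ chain.

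**Figure D1:**
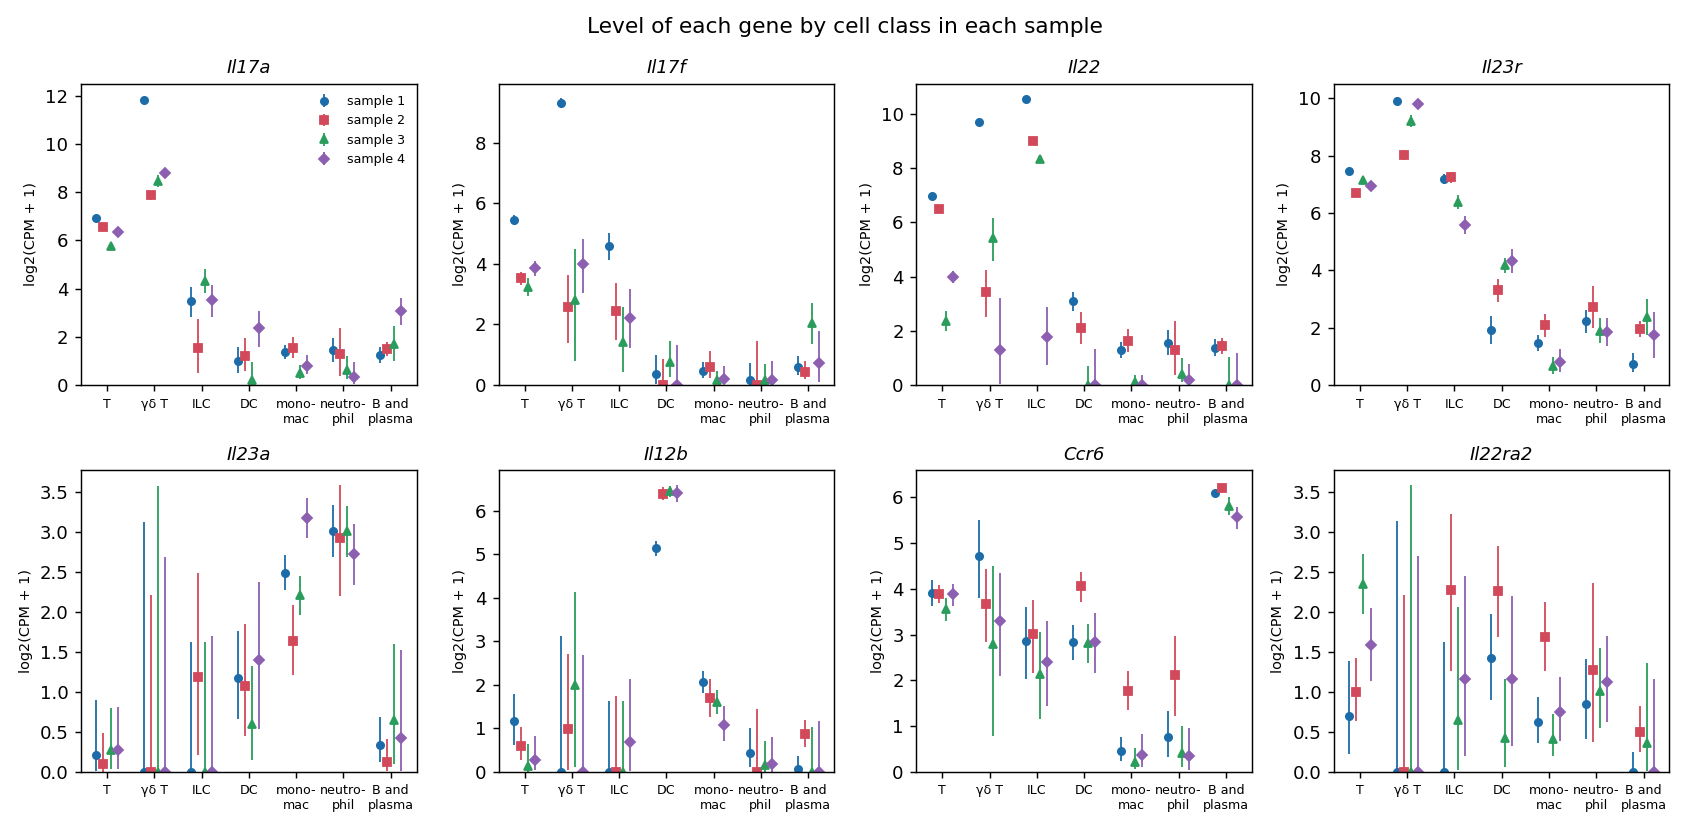
Level of each of the 8 genes, as log2(CPM + 1), in 7 cell classes, with 1 point a sample and bars for exact 95% Poisson intervals. Il17a and Il23r were highest in γδ T cells in 4 of 4 samples, Il12b in DC and Ccr6 in B and plasma cells, while Il22ra2 stayed at or under 4.08 CPM in every class.

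Il17f encodes IL-17F, a close relative that pairs with IL-17A. It was high in γδ T cells of sample 1 at 633 CPM, from 301 UMIs, and at 4.93, 5.97 and 14.8 CPM in samples 2 to 4. T cells had 42.5, 10.5, 8.47 and 13.5 CPM. The γδ T to T ratio was 14.9 (12.6 to 17.6) in sample 1. In samples 2 to 4 it was 0.47 (0.15 to 1.12), 0.705 (0.084 to 2.63) and 1.1 (0.516 to 2.09), intervals that all include equal levels. The γδ T values of samples 2 to 4 rest on 5, 2 and 10 UMIs. B and plasma cells had 0.362 to 3.09 CPM.

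Cells with much Il17f often had much Il17a as well. Of 46 T, γδ T and ILC cells with at least 5 Il17f UMIs, 28 had at least 5 of Il17a, and 16 had at least 5 of Il22. In the other direction, 28 of 178 cells with at least 5 Il17a UMIs had at least 5 of Il17f, and 17 of those came from sample 1. Il23r was detected in 163 of the 178.

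Il22 encodes IL-22. Its level in ILC was 1478, 517, 326 and 2.45 CPM in samples 1 to 4, and in T cells 126, 88.6, 4.18 and 14.8 CPM. In γδ T cells it was 839, 9.85, 41.8 and 1.48 CPM. ILC were thus the highest class in samples 1 to 3 and T cells in sample 4. The ILC to T ratio was 11.8 (10.9 to 12.7), 5.84 (5.33 to 6.38), 78 (56.8 to 110) and 0.165 (0.0445 to 0.433).

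These levels rest on very few cells. The 2620 ILC UMIs of sample 1 came from 5.45% of 312 ILC, and the 810 of sample 2 from 4.8% of 417. In sample 3 all 577 came from 1 cell. In sample 4 the 4 UMIs came from 0.505% of 396 ILC. Without the highest cell of each class, ILC in sample 3 held 0 Il22 UMIs, T cells then had the highest level in samples 3 and 4, and the ratio in samples 1 and 2 was 22.2 and 5.43. Over whole samples, the 10 highest cells held 58.4% to 96.1% of Il22 UMIs. T cells with an Il22 UMI made up 1.81% to 3.85% of their class, against 0% to 1.11% of B and plasma cells and 0.0703% to 1.22% of neutrophils.

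In sample 4, where T cells led, few cells were positive. Its highest Il22 cell, with 101 of 327 UMIs, lay in the ILC3-like sub-cluster but passed the T gate. Another 54.4% of that sample's Il22 UMIs lay in mixed clusters. With at least 500 genes a cell, under 10% mitochondrial UMIs, a Leiden resolution of 2.0, mixed clusters assigned to a class, or classes taken from sub-clusters, ILC were the highest class in 4 of 4 samples. Which cells changed class under these settings was not tested.

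**Figure D2:**
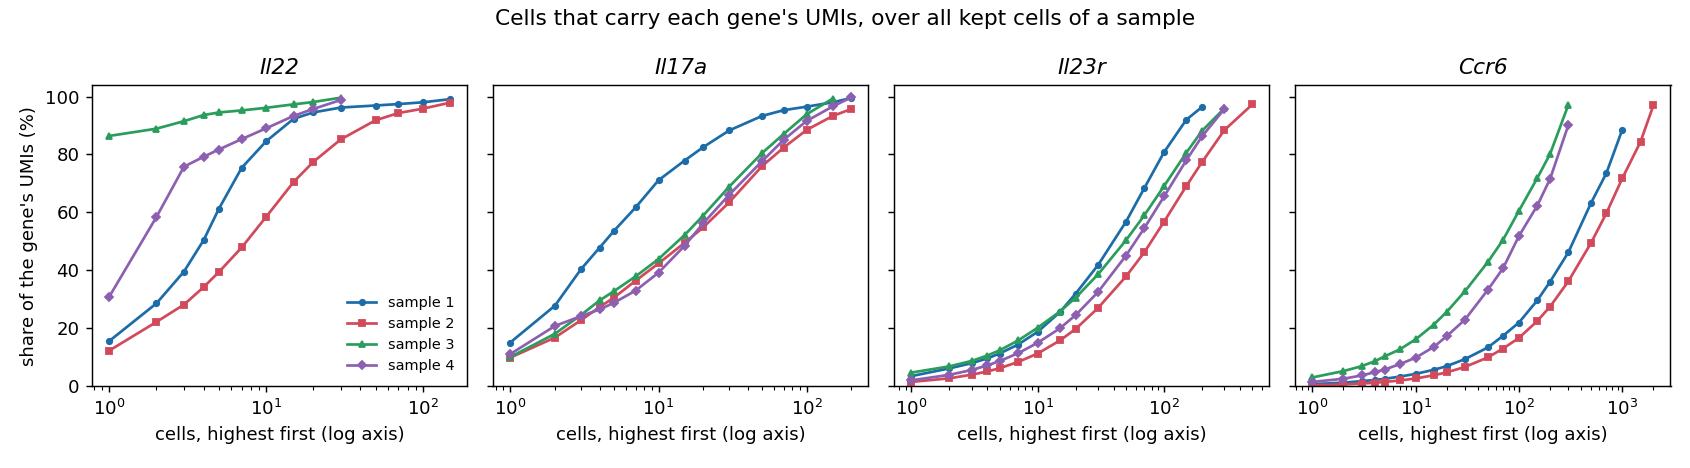
Cumulative share of the UMIs of Il22, Il17a, Il23r and Ccr6 (percent) against the number of cells ranked from the highest (log axis), over all kept cells, with 1 line a sample. A single cell held 86.4% of Il22 UMIs in sample 3, whereas it took 338 and 508 cells to reach 50% of Ccr6 UMIs in samples 1 and 2.

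Mouse Il22 (chromosome 10, 118204942 to 118210047, plus strand) has a near copy, Iltifb (chromosome 10, 118289629 to 118295038, minus strand), 79581 bases away. Their longest coding transcripts shared 97.4% of 1110 aligned bases, and the last 300 bases of each, where 3′ reads fall, shared 95%. Reads that match both copies alike may have been dropped or split, so the Il22 level is uncertain to that extent. Iltifb itself had 101 UMIs in kept cells against 7967 of Il22. T cells held 63 of the 101, ILC 3 and γδ T cells 0.

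Il23r (chromosome 6, 67422932 to 67491855, minus strand) encodes the IL-23-specific receptor chain, and it was spread over more cells than the cytokines. In γδ T cells it was at 954, 260, 594 and 902 CPM, detected in 68.6%, 15.3%, 73% and 67.1% of cells. In T cells it was at 174, 102, 140 and 123 CPM and in ILC at 144, 151, 82.5 and 47.2 CPM. The γδ T class was highest in 4 of 4 samples, at 5.48 (4.9 to 6.12), 2.55 (2.23 to 2.91), 4.24 (3.63 to 4.92) and 7.35 (6.65 to 8.12) times the T level. T cells and ILC had no fixed order, since T cells were higher in samples 1, 3 and 4 and lower in sample 2, at 0.677 (0.589 to 0.78) times the ILC level.

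The share of cells with an Il23r UMI was 9.56% to 19.8% in T cells and 6.31% to 8.63% in ILC. B and plasma cells gave 0.466% to 1.13% and neutrophils 0.755% to 1.34%. Thinned to 1000 UMIs, γδ T cells gave 10.4% to 47.1% and B and plasma cells 0% to 0.239%. The 10 highest cells held 11.3% to 20.2% of a sample's Il23r UMIs, a lower share than for Il22 in each sample. DC had 2.8, 8.9, 17.1 and 19.2 CPM, at or above the neutrophil level of 2.62 to 5.67 CPM in samples 2 to 4.

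**Figure D3:**
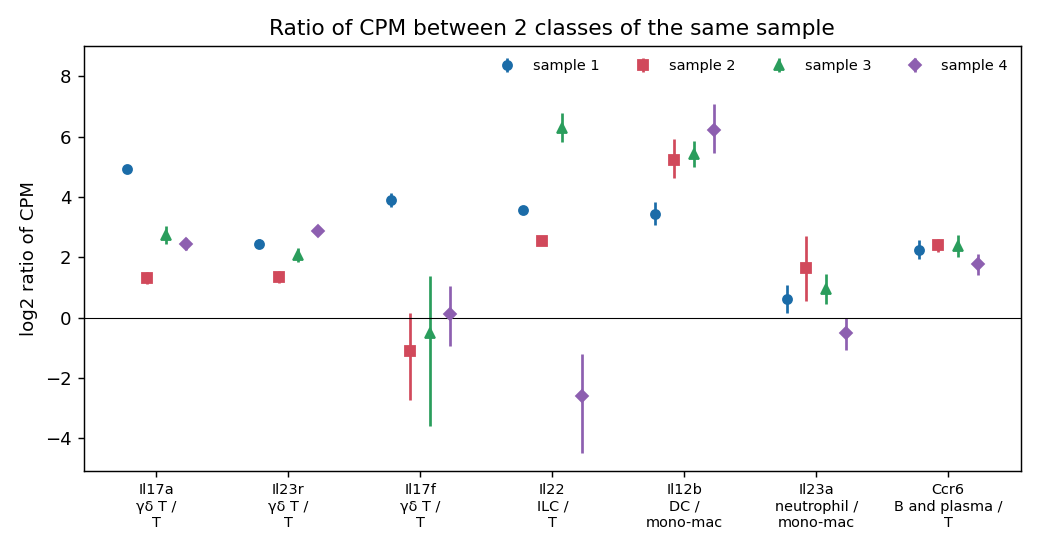
Ratio of CPM between 2 classes of the same sample on a log2 axis, for 7 gene and class pairs, with 1 point a sample and bars for exact 95% intervals. Il17a, Il23r, Il12b and Ccr6 lay above the zero line in 4 of 4 samples, whereas Il17f, Il22 and Il23a had points on both sides.

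Sub-clusters of the lymphoid cells, formed without the 8 genes, placed the members more narrowly. A sub-cluster of 294 cells was led by Zbtb16 and Cd163l1. It held 120 cells of the γδ T gate, 127 of the T gate and 34 of the ILC gate. It was given no cell type name, although its best-scoring marker list was that of ILC3. Il17a there was at 2432, 1366, 579 and 643 CPM, with 61.6% of cells positive. Il23r was at 1649, 1440, 1065 and 1218 CPM, with 88.4% of cells positive. Its Il17f level was 719 CPM in sample 1 and 10.6 to 31 CPM in samples 2 to 4. Of the 48 γδ T cells with at least 5 Il17a UMIs, 35 were in this sub-cluster, as were 46 of the 127 such T cells.

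The ILC3-like sub-cluster held 50 cells (12, 23, 8 and 7). Il22 there was at 18886, 5561, 8741 and 1677 CPM, and 9, 21, 2 and 2 cells were positive. A single cell held 577 of its 583 Il22 UMIs in sample 3 and 101 of its 102 in sample 4, so those levels rest on 1 cell each. Il23r was detected in 96% of its cells. Of the 27 ILC with at least 5 Il22 UMIs, 21 lay in this sub-cluster, and 9 of the 35 such T cells did. An NK or ILC1-like sub-cluster with Kit and Ncr1 among its leading genes had Il22 at 245 and 480 CPM in samples 1 and 2, with 3 and 5 positive cells, and held 0 UMIs in samples 3 and 4. In sample 2, 290 of those UMIs came from 1 cell that passed the T gate, so the level there is not one of ILC alone.

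Among T cells, a sub-cluster led by Cd40lg and Cd4 had Il17a at 99, 334, 144 and 333 CPM and Il23r at 222 to 406 CPM. A Treg-like sub-cluster, led by Foxp3 and Il10, had Il23r at 124, 230, 138 and 122 CPM, with 22.2% of cells positive. The T class also took in 141 cells of a sub-cluster led by the myeloid genes Chil3 and Tgfbi at a median of 24800 UMIs a cell, and 12 of the 127 T cells high in Il17a were among them.

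**Figure D4:**
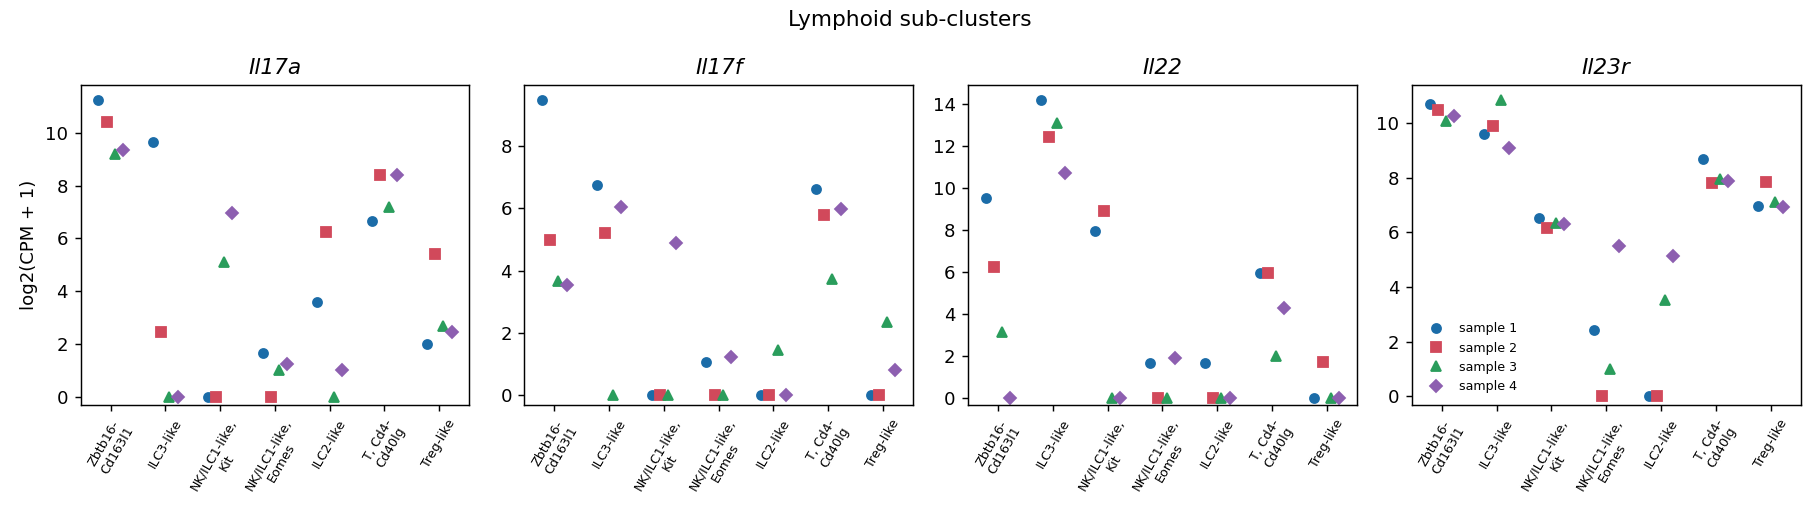
Levels of Il17a, Il17f, Il22 and Il23r, as log2(CPM + 1), in 7 lymphoid sub-clusters, with 1 point a sample. Il17a and Il23r were high in the Zbtb16-Cd163l1 sub-cluster in 4 of 4 samples (579 to 2432 and 1065 to 1649 CPM), and Il22 was higher in the ILC3-like sub-cluster than in the rest in 4 of 4 samples (1677 to 18886 CPM), carried by 1 cell each in samples 3 and 4.

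The IL-23 subunits were found mainly in myeloid cells, each with its own leading class. Il23a (chromosome 10, 128296139 to 128298752, minus strand), the p19 subunit, was at 7.13, 6.62, 7.09 and 5.64 CPM in neutrophils and at 4.64, 2.12, 3.65 and 8.07 CPM in monocyte-macrophages. The neutrophil to monocyte-macrophage ratio was 1.54 (1.11 to 2.11), 3.13 (1.47 to 6.45), 1.95 (1.38 to 2.72) and 0.699 (0.479 to 1), so that neutrophils were the higher in samples 1 to 3 and the order turned in sample 4, where the interval reached equal levels. In DC it was 0.517 to 1.64 CPM. γδ T cells had 0 UMIs in 4 of 4 samples, which allows up to 2.96 to 8.96 CPM. The share of cells with an Il23a UMI was 1.9% to 2.29% in neutrophils and 1.16% to 3.12% in monocyte-macrophages, against 0.0498% to 0.264% in T cells and 0.0645% to 0.455% in B and plasma cells.

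Il23a was uneven among the monocyte-macrophages. A sub-cluster led by Cxcl9 and Ly6i, of which 397 of 464 cells came from sample 1, had 16.7 CPM there. A sub-cluster led by Chil3 and Slpi, with 1357 and 584 cells in samples 3 and 4, had 4.37 and 16.5 CPM.

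Il12b (chromosome 11, 44400063 to 44414033, plus strand), the p40 subunit, was at 34.3, 83.4, 86.3 and 83.9 CPM in DC and 1.12 to 3.16 CPM in monocyte-macrophages. The DC to monocyte-macrophage ratio was 10.8 (8.35 to 14.2), 37.6 (24.5 to 60.8), 42.5 (31.7 to 58.2) and 74.9 (44.3 to 136). DC were positive in 5.97% to 10% of cells, against 0% to 0.354% of B and plasma cells and 0.121% to 0.348% of T cells. A mature DC sub-cluster led by Syn3 and Nrp2, whose leading genes include Fscn1, had 252, 580, 125 and 278 CPM. In sample 2 a single DC held 215 of the 580 UMIs of the whole sample, and without the highest cells the ratio there was 18.7. In samples 1 and 4 the highest Il12b cell lay in the mixed clusters. Those clusters held 33.3% and 56.6% of the Il12b UMIs of samples 1 and 4, and DC 48.9% and 39.3%. The 34, 24, 61 and 17 DC with an Il12b UMI in samples 1 to 4 held no Il23a UMI, and 1 monocyte-macrophage, in sample 3, had both. With Il23a in 3 to 6 DC a sample, an overlap in DC could hardly be seen at this depth.

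Ccr6 (chromosome 17, 8236043 to 8257141, plus strand) was highest in B and plasma cells. It was at 66.9, 73, 55.3 and 46.3 CPM in B and plasma cells, with 18.2% to 29.8% of cells positive, and at 10.7 to 14.1 CPM in T cells. B and plasma cells were above T cells in 4 of 4 samples, by 4.75 (3.84 to 5.96), 5.27 (4.54 to 6.15), 5.16 (4.06 to 6.61) and 3.39 (2.65 to 4.34). γδ T cells had 25.2, 11.8, 5.97 and 8.9 CPM from 12, 12, 2 and 6 UMIs, and their ratio to T cells had an interval that included equal levels in each sample. Neutrophils, which should lack Ccr6, had 0.262 to 3.31 CPM. The Treg-like sub-cluster led by Foxp3 and Il10 had 33.2, 39.5, 36.8 and 31.4 CPM, above the T class as a whole in 4 of 4 samples. Of 178 T, γδ T and ILC cells with at least 5 Il17a UMIs, 55 had a Ccr6 UMI.

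Il22ra2 (chromosome 10, 19621998 to 19634681, plus strand) was sparse in every class, with 362 UMIs in 230 kept cells. T cells had 0.626, 0.999, 4.08 and 2 CPM, and DC 1.68, 3.78, 0.344 and 1.23 CPM. Neutrophils had 0.805 to 1.42 CPM. The T to neutrophil ratio was above 1 beyond its interval in sample 3, at 4.03 (1.92 to 9.44), and its interval included 1 in the other samples. The T to DC ratio was 0.264 (0.121 to 0.57) in sample 2 and 11.8 (3.07 to 101) in sample 3, so the order of those classes turned. γδ T cells had 0 UMIs in 4 of 4 samples, and the same 2.96 to 8.96 CPM are allowed there.

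The class contrasts were set beside the same contrasts over all genes, counting a gene where the CPM ratio was 2-fold or more the same way in 4 of 4 samples, with 1 UMI added to each sum. Between γδ T and T cells, 2 of 7 members with at least 10 UMIs were higher, Il17a and Il23r, where 11.1% of 15617 genes were. Of those 1733 genes, 1554 had 0 UMIs in γδ T cells of some sample, and the added UMI raised them in the smaller class. When the added UMI was shared out by the class totals, 0.621% of genes were higher and the same 2 members were. No member was lower, against 0.397% of genes, or 1 (Il22ra2) against 4.58% with the shared-out UMI. Il22ra2 had 0 UMIs in γδ T cells of 4 of 4 samples. The level that this allows was above the T level in each sample, so the call does not show a lower level. The median log2 ratio was 0.20 over members, 0.26 over all genes tested and 0.77 over the 25 measured genes of a list of 27 pathway genes. These medians, and those given below, use 1 UMI added to each sum, which raises genes of few UMIs in the smaller class. Il27, with 0 UMIs in γδ T cells, had 1.80, so the pathway median shows no raised list.

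Between ILC and T cells, no member was higher in 4 of 4 samples, where 4.32% of 15942 genes were, and 1 of 7 was lower, Il17a, where 1.49% were. With the shared-out UMI these shares were 2.59% and 3.01%, and the members called were the same. The median log2 ratio was -0.51 over members and 0.07 over all genes. Between DC and monocyte-macrophages, 2 of 8 members were higher, Il12b and Ccr6, where 10.1% of 16914 genes were, and none was lower, where 4.5% were. With the shared-out UMI the shares were 7.7% and 5.56%. The median log2 ratio was 1.25 over members and 0.33 over all genes. The DC class held a sub-cluster of 26 cells led by the B cell genes Ebf1, Bank1 and Cd79a, all from samples 1 and 2. Cd79a in DC was at 61.6, 173, 2.41 and 10.2 CPM in samples 1 to 4. The part of such cells in the DC level of Ccr6 was not tested.

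Of the pathway list, Zbtb16, Sox13 and Blk, which encode transcription factors and a kinase known from IL-17-producing γδ T cells, were higher in γδ T than in T cells in 4 of 4 samples. With Il27 they made 4 of 25 measured genes, beside 11.1% of all genes, or 3 beside 0.621% with the shared-out UMI. Zbtb16 was at 710, 379, 657 and 816 CPM in γδ T cells and 71.8 to 141 CPM in T cells. Blk was at 433, 113, 242 and 242 CPM against 12.9 to 40.7 CPM. Sox13 was at 4.2, 1.97, 29.9 and 49 CPM, from only 2, 2, 10 and 33 UMIs, against 0.428 to 1.37 CPM. Il27 was called with them, although γδ T cells held 0 UMIs of it. No pathway gene was lower with 1 UMI added, and Il21 and Il27 were with the shared-out UMI. γδ T cells held 0 UMIs of both. Il27 was at only 0.214 to 0.714 CPM in T cells, so its call does not show a lower level. Il1r1, the receptor of IL-1, was at 330, 71.9, 170 and 390 CPM in γδ T cells and 60.4 to 86 CPM in T cells, and it did not reach 2-fold in sample 2. Maf, also on the list, was lower in γδ T than in T cells in 4 of 4 samples, by less than 2-fold except in sample 2. It was at 235, 81.8, 346 and 374 CPM against 292, 225, 589 and 670 CPM. Batf was at 24.6 to 102 CPM in γδ T cells and 67 to 103 CPM in T cells.

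Between ILC and T cells, 2 of 25 measured pathway genes were higher, Rora and Csf2, beside 4.32% of all genes, and 1 was lower, Il21, beside 1.49%. Csf2, the gene of GM-CSF, was at 95.9, 51.7, 51.4 and 58.9 CPM in ILC and 0.714 to 5.26 CPM in T cells. Rora, a transcription factor of innate lymphoid cells, was at 2587 to 4131 CPM in ILC and 947 to 1480 CPM in T cells. Between DC and monocyte-macrophages, 3 of 24 were higher (Il21r, Il17re and Blk), beside 10.1% of all genes, and 2 were lower (Maf and Il1r1), beside 4.5%, and shares so near the background are no result about the list. With the shared-out UMI, Il17re was no longer higher, and Il17rc was also lower in ILC than in T cells. ILC held 0 UMIs of Il17rc and T cells had only 0.631 to 1.41 CPM, so that call does not show a lower level. Ahr, the gene of the aryl hydrocarbon receptor, was at 90.4, 200, 128 and 191 CPM in γδ T cells, 85.9, 156, 114 and 150 CPM in T cells and 154 to 191 CPM in ILC.

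Some downstream genes of the pathway were highest in the few epithelial cells left by the CD45 selection. The pathway list was read in the 7 classes and in epithelial cells, and not in fibroblasts or endothelial cells. Reg3b and Reg3g, antimicrobial lectins, were at 1596 to 3158 and 268 to 685 CPM in epithelial cells, while Reg3b was at 0.778 to 8.42 CPM in B and plasma cells. The epithelial class held 54, 172, 40 and 79 cells in samples 1 to 4. Reg3b was detected in 9.26%, 43.6%, 37.5% and 45.6% of them, so its level rests on few cells. Ccl20, the ligand of Ccr6, was at 12.6 to 94.2 CPM in epithelial cells and at most 2.5 CPM in the other classes compared. Il17rc and Il22ra1, receptor chains for IL-17 and IL-22, were at 57.1 to 75.2 and 1.06 to 3.15 CPM there. Il17ra, the shared IL-17 receptor chain, was in every class, from 14 to 18.4 CPM in epithelial cells to 89.8 to 139 CPM in neutrophils. Il10rb, also on the list, was at 30.9 to 57.1 CPM in epithelial cells and 125 to 199 CPM in neutrophils.

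Variable segments of the γδ receptor were sparsely read. Trdv4, a variable segment of the δ chain, was detected in 16 of 51, 15 of 163, 19 of 37 and 34 of 85 γδ T cells of samples 1 to 4. Among γδ T cells with at least 5 Il17a UMIs it was in 9 of 19, 2 of 8, 3 of 5 and 11 of 16. Tcrg-V6 was in 3, 2, 5 and 8 of the γδ T cells, Tcrg-V4 in 2, 3, 1 and 2, and Tcrg-V1 in 3, 6, 0 and 4.

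By correlation of log2(CPM + 1) over 102 points, each a class or sub-cluster of 1 sample with at least 50 cells, the genes most like each member were then listed. Not every class was a point. The gated γδ T class of sample 1 (51 cells, Il17a at 3682 CPM) was left out, as the highest Il17a level of a point was 2432 CPM. The points of a sample share its library, and these values are descriptions. For Il17f the nearest were Il17a (r = 0.76) and Il23r (r = 0.74), and for Il22 the nearest was Il17f (r = 0.63). The highest Il22 level of a point was 728 CPM, so the ILC class of sample 1 (1478 CPM) was not among the points. Nor was the ILC3-like sub-cluster, which had under 50 cells in each sample. The Il22 values therefore leave out the cells with the highest Il22 levels. For Il17a they were Gm38411 (r = 0.81) and Ppp1r14c (r = 0.79), and for Il23r Olfr60 (r = 0.87) and Ppp1r14c (r = 0.83). Timd4 and Havcr1 were nearest to Il12b (r = 0.74 each), Adgb and Trem3 to Il23a (r = 0.73 and 0.72), and Dusp4 and Glcci1 to Ccr6 (r = 0.71 and 0.68). For Il22ra2 no gene exceeded r = 0.37.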

How the data were processed

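The 4 samples were single-cell RNA-seq libraries made on the 10x platform. Per the submitters' processing notes reads were handled with Cell Ranger 5.0.0, STAR and Seurat on mm10, whereas the headers of the matrices name Cell Ranger 7.0.1; whether introns were counted was not given in the sources used here. The deposited values are raw UMI counts per gene and cell barcode, as the authors' pipeline wrote them, with no normalization. The totals were 72509408 to 135516016 UMIs a sample.

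Cells with at least 200 genes and under 20% mitochondrial UMIs were kept. A nearest-neighbour doublet score computed in each sample then removed 0.8% of cells for each 1000 cells. Counts were scaled to 10000 a cell and logged, 2000 variable genes and 30 components were used with 15 neighbours, and Leiden clusters were made at resolution 1.0. The 8 members, the Il22 copy and the pathway genes were left out of the clustering. Clusters were named from fixed markers, and the rule that set mixed clusters apart was written after clusters had been seen. T cells, γδ T cells and ILC were gated on CD3, Trdc, Tcrg constant and Trac UMIs, and cells that met no gate were left unresolved. UMIs were summed per class and sample and divided by the class total to give CPM.

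The labels give no genotype, so all 4 samples were left without a group and classes were compared within a sample. Intervals at the 95% level are exact (Poisson, binomial, or the binomial form for a ratio of counts) and cover counting error only. A gene entered a class contrast with at least 10 UMIs in the pair of classes and was counted at 2-fold or more in 4 of 4 samples. That count was tested on simulated data, made only from DC and monocyte-macrophage sums and scored on genes with counts above that minimum. The simulation does not cover the contrasts with γδ T cells or ILC, nor genes of few UMIs. The limit for a count of 0 was set at 3 UMIs. The genes named were the 8 members, 27 pathway genes, the γδ variable segments, the near copy of Il22 and, for each member, the 3 genes of highest correlation, of which at most 2 are given. The members and lists were chosen with earlier results of these data known. Python 3.11.15, numpy 2.4.6, scipy 1.17.1, pandas 2.3.3, scikit-learn 1.9.0 and python-igraph 0.11.9 were used. Alternatives covered the filters, the gates, the clustering, the minimum count, the fold, thinning to 1000 UMIs and leaving out each sample. One further gene that was looked at is not reported here.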

Additional observations from a re-analysis of the deposited data

Results flagged for a closer look

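UMIs of all 8 genes were also found in clusters that held markers of unlike lineages, 6265 cells that the class comparisons do not use. They amounted to 1890 UMIs of Il17a (23.4% of its total), 238 of Il17f (17.9%), 1048 of Il22 (13.2%) and 2864 of Il23r (26.2%). Of the other genes they held 165 UMIs of Il23a (21.6%), 854 of Il12b (35.7%) and 2950 of Ccr6 (41.6%). Il22ra2 had 112 (30.9%). Each is above the 3 UMIs that a count of 0 allows. In the mixed clusters 62 cells had at least 5 Il17a UMIs and 178 had at least 5 of Il23r.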

How the results depend on the processing

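Of 408 values recomputed, 338 stayed within the limits set and 70 moved. The γδ T class led Il17a and Il23r, DC led Il12b and B and plasma cells led Ccr6 in every sample under each alternative that gave those classes; classes taken from sub-clusters gave no γδ T class. Of the alternatives, 3 were chosen after the data were seen: leaving out the highest cell, leaving out 4 lymphoid sub-clusters led by genes of other lineages, and the shared-out UMI. T cells led Il17f in 2 samples as reported, in 1 with mixed clusters assigned to a class, in 4 with classes from sub-clusters and in 0 after thinning; for Il22ra2 they led in 1 with classes from sub-clusters and in 1 after thinning. ILC led Il22 in 2 samples without the highest cells. The share of genes higher in γδ T than in T cells was 36.2% with a minimum of 1 UMI, 1.51% with 50, 1.29% at 4-fold (members, 0) and 0.621% with the shared-out UMI; lower were 0.109% at 4-fold and 4.58% (members, 1) with the shared-out UMI, and 0.5% to 0.82% leaving out one sample. Between ILC and T cells, higher were 19.4% with a minimum of 1 UMI, 0.985% at 4-fold and 2.59% with the shared-out UMI; lower were 0.276% at 4-fold (members, 0), 3.01% with the shared-out UMI, 3.11% with classes from sub-clusters, and 1.73% to 3.21% leaving out one sample. The members higher in ILC became 1 (Il22) with at least 500 genes, under 10% mitochondrial UMIs, resolution 2.0, mixed clusters assigned or classes from sub-clusters, and were 0 to 1 leaving out one sample (1 without sample 4). The members lower in ILC became 2 under 10% mitochondrial UMIs and with classes from sub-clusters, and were 1 to 2 leaving out one sample (Il17f added without sample 1, Ccr6 without sample 2). Between DC and monocyte-macrophages, higher were 18.6% with a minimum of 1 UMI and 3.21% at 4-fold, and lower 1.31% at 4-fold; the members lower became 1 (Il23a) under 10% mitochondrial UMIs and were 0 to 1 leaving out one sample (1 without sample 2). The cause of these moves was not tested, apart from the added UMI, whose effect follows from the smaller γδ T totals. No paired analysis was possible because the labels put no sample in a group. At 37 to 163 γδ T cells a sample, a count of 0 in that class allows a level of up to 2.96 to 8.96 CPM.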
